A study of Homo sapiens
Mus musculus and Homo sapiens with 2 samples.

Results

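Aminoacyl-tRNA synthetases join each amino acid to its transfer RNA, the step that gives the ribosome charged tRNA. Human cells use one set of these enzymes in the cytosol and another in the mitochondrial matrix, and both sets are encoded in the nucleus. The mitochondrial genes are mostly named with a final 2 (TARS, cytosolic threonyl-tRNA synthetase, and TARS2, its mitochondrial counterpart), while KARS and GARS give enzymes to both compartments. Several cytosolic synthetase genes are known targets of ATF4, the transcription factor of the integrated stress response, which is turned on when amino acids run short. The 36 genes described here were taken by symbol from the A549 gene table, which lists 43167 genes, and comprise 20 cytosolic and 16 mitochondrial members. All 36 were also found among the 63568 human genes of the HEK293T and NIH/3T3 table.

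The assay was sci-fate, a single-cell RNA method in which cells take up 4-thiouridine (S4U), a uridine analog, and iodoacetamide then alters the S4U bases so that molecules made during labelling can be called new. A549, a human lung adenocarcinoma line, was harvested after 0, 2, 4, 6, 8 or 10 h with dexamethasone, a synthetic glucocorticoid, at 100 nM by the protocol (101 nM in one label of this sample), and controls had ethanol. All 6 A549 cultures had 200 µM S4U for the final 2 h. The second sample mixed mouse NIH/3T3 fibroblasts with HEK293T, a line from human embryonic kidney, and its labelled cells had 200 µM S4U for 6 h and then iodoacetamide. A label of the mixture also lists dexamethasone, which the protocol gives to A549 alone, so HEK293T cells were taken here as not exposed to it. Other HEK293T cells had iodoacetamide only, S4U only or neither, and give the background of the call. There was 1 culture for each A549 time and 1 for each labelling group, so cells are not replicates. The A549 cultures held 1045 to 1446 cells and 28870594 to 43084614 whole counts, of which 20.3% to 22.6% were new. The 913 labelled HEK293T cells held 6678383 human counts, 54.7% of them new, against 1.24% with iodoacetamide only, 1.02% with S4U only and 0.888% with neither. No cell name was shared between A549 and the mixture. In A549 the keratin genes KRT7, KRT8 and KRT18 stood at 3055 to 4059 CPM (counts scaled to a common library total), ALDH1A1 at 6728 and CDH1, which encodes E-cadherin, at 20.9. In HEK293T, DACH1 stood at 538, IGF2BP1 at 409, LIN28B at 193 and SALL4 at 0.976, against 1.09, 211, 20.3 and 0.781 in A549. Of the endothelial markers, PECAM1 was at 0 in both lines, CDH5 at 0.660 in A549 and 0.253 in HEK293T, and VWF at 0.540 and 0.325. The immune marker CD68 stood at 8.06 in A549 and 1.01 in HEK293T, and the fibroblast marker COL1A1 at 9.45 and 3.25. The other immune and fibroblast markers were at 0.245 or lower in both lines.

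The 2 enzymes of a pair can be so alike that short reads from one could match the other, so the longest identical coding stretch was sought in 13 pairs, using GENCODE release 29 transcripts. HARS and HARS2, histidyl-tRNA synthetase genes that lie head to head on opposite strands of chromosome 5, shared a run of 24 bases, and VARS and VARS2, valyl-tRNA synthetase genes on chromosome 6, one of 21. The other 11 pairs shared runs of 11 to 17 bases. These windows show both runs in capitals with 24 bases of coding sequence on each side.
HARS: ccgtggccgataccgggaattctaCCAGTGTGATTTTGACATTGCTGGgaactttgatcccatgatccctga
HARS2: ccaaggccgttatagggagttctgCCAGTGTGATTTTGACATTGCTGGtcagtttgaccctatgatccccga
VARS: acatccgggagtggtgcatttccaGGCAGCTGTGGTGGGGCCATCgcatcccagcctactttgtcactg
VARS2: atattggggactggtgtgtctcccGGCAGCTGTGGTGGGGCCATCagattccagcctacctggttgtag
The HARS and HARS2 windows were identical at 59 of 72 bases and those of VARS and VARS2 at 52 of 69. No longer identical coding stretch was found in any of the 13 pairs. Introns and untranslated ends were not searched, although gene counts include intronic reads, so reads outside coding sequence are not covered. Overlap with neighbouring genes is another limit. In GENCODE release 29, HARS overlaps HARS2 on the opposite strand, MARS overlaps DDIT3, KARS TERF2IP, CARS2 ING1 and YARS S100PBP in the same way, and VARS2 lies across GTF2H4 on its own strand. Since the sources used here do not say whether counting used strand, counts of these genes are uncertain. The list is not complete. Other members also overlap annotated genes, among them HARS2, SARS2, WARS2 and YARS2 on their own strand and EARS2 and WARS on the opposite strand. Their counts carry the same limit. Extra copies of VARS and VARS2 on alternative haplotypes in the mixture table had no counts.

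After the 2 h label, the median share of a gene's counts that was new was lower in the cytosolic than in the mitochondrial class, and the ranges overlapped. Cytosolic synthetase genes in A549 had a median new share of 11.2%, from 4.62% for QARS to 19.7% for FARSB. Mitochondrial members had a median of 29.2%, from 8.63% for IARS2 to 77.7% for MARS2. The median over 14122 protein-coding genes with at least 100 counts was 26.9%, and all 20 cytosolic members lay below it, while 8 of the 16 mitochondrial members lay above. Pooled over members, 11.4% of 727529 cytosolic counts were new (exact Clopper-Pearson 95% interval 11.3 to 11.5) and 25.7% of 163852 mitochondrial counts (25.5 to 25.9). These intervals cover counting error only. IARS2 gave 55640 of the mitochondrial counts at a share of 8.63%, so this gene lowers the pooled mitochondrial value. Counts per member ran from 12521 to 77781 in the cytosolic and from 513 to 55640 in the mitochondrial class. Neither the classes nor the protein-coding genes were matched on counts, and how far the shares follow a gene's level was not tested. Gene counts hold both exonic and intronic reads, and over all genes in A549 66.6% of intronic against 12.9% of exonic counts were new, so a gene's share depends also on how many of its counts are intronic, which was not tested per gene. Unlabelled A549 cells are not used here, so the background of the call in this line is unknown.

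The lowest shares belonged to QARS, glutaminyl-tRNA synthetase, VARS and EPRS, which encodes a fused glutamyl- and prolyl-tRNA synthetase. QARS had 5.10% new counts at 0 h and 3.78%, 4.81%, 5.08%, 4.41% and 4.49% at 2, 4, 6, 8 and 10 h. VARS had 5.96% at 0 h, then 4.71%, 4.04%, 5.24%, 6.05% and 4.98%. EPRS had 8.00% at 0 h, then 6.89%, 7.18%, 8.60%, 8.75% and 8.36%. The QARS and VARS ranges overlapped, and both lay below every EPRS culture. QARS and VARS ranked at percentiles 3.26 and 4.15 of protein-coding genes, and EPRS at 10.7.

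At the upper end of the cytosolic class stood FARSB, the beta subunit of phenylalanyl-tRNA synthetase, CARS, cysteinyl-tRNA synthetase, and DARS, aspartyl-tRNA synthetase. FARSB had 17.3% at 0 h, then 19.6%, 19.2%, 20.1%, 20.9% and 20.7%. CARS had 21.7% at 0 h, then 16.0%, 16.8%, 18.5%, 18.1% and 17.6%. DARS had 15.1%, 15.3%, 14.3%, 17.2%, 17.0% and 17.1% in the same order. FARSB was thus lowest and CARS highest at 0 h. FARSA, the alpha subunit that works with FARSB in one enzyme, had a pooled share of 11.6% (11.1 to 12.1) against 19.7% for FARSB (19.3 to 20.1), and the culture ranges did not overlap (9.96% to 13.6% against 17.3% to 20.9%). The other cytosolic members, AARS, GARS, HARS, IARS, KARS, LARS, MARS, NARS, RARS, SARS, TARS, WARS and YARS, had pooled shares of 9.23% to 14.1%. The 8 enzymes of the multi-synthetase complex, a cytosolic assembly of EPRS, IARS, LARS, QARS, MARS, KARS, RARS and DARS, had a median of 11.2%, the value of the whole class.

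**Figure D1:**
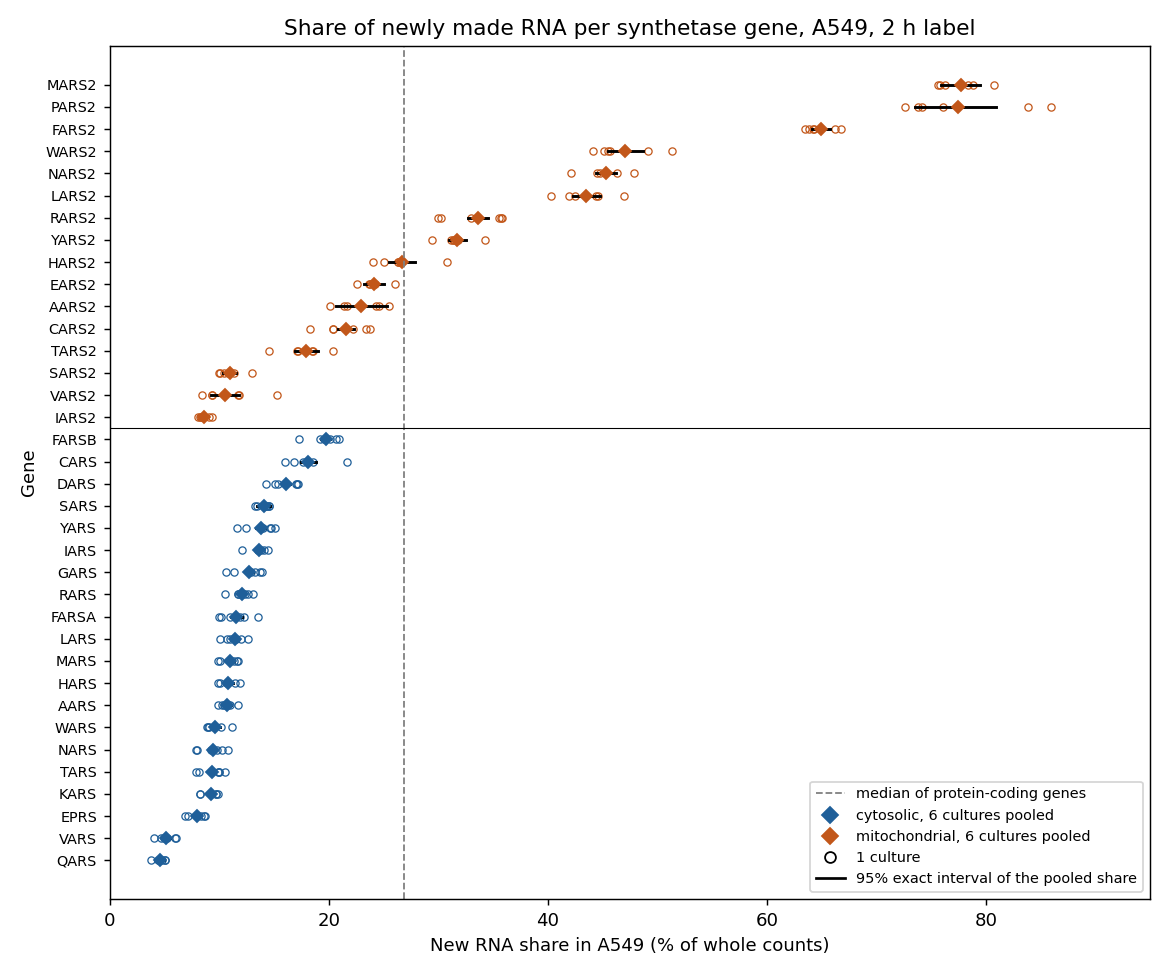
New share of each synthetase gene in A549, in percent of its whole counts (horizontal axis), with 1 row per gene. Open circles are single cultures, diamonds the 6 cultures pooled, bars the exact 95% interval of the pooled share and the dashed line the protein-coding median of 26.9%. Every cytosolic diamond is left of that line, and mitochondrial diamonds run from 8.63% to 77.7%.

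Mitochondrial members spread over a far wider range. MARS2, mitochondrial methionyl-tRNA synthetase, had 75.8% new counts at 0 h, then 75.6%, 78.8%, 78.3%, 76.2% and 80.7%. PARS2, the prolyl enzyme, had 76.0%, 73.8%, 83.8%, 72.6%, 85.9% and 74.1% in the same order, and rests on 513 counts in all. FARS2, the phenylalanyl enzyme, had 63.9%, 64.3%, 63.4%, 66.7%, 66.2% and 64.2%. MARS2 and PARS2 overlapped each other, at percentiles 98.9 and 98.8 of protein-coding genes, and both lay above FARS2 in every culture. MARS2 overlaps another annotated gene, AC011997.1, on its own strand, so its counts are uncertain.

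The lowest mitochondrial members fell within the cytosolic range. IARS2, mitochondrial isoleucyl-tRNA synthetase, had 8.46% at 0 h, then 8.33%, 8.10%, 9.10%, 9.37% and 8.30%. VARS2 had 11.7%, 15.3%, 11.8%, 8.42%, 9.31% and 9.35% in the same order, from 2400 counts in all, and SARS2, the seryl enzyme, had 10.8%, 9.99%, 10.1%, 11.4%, 13.03% and 10.4%. The range of VARS2 overlapped both others, and every SARS2 culture was above every IARS2 culture. Between these extremes the pooled share was 17.9% for TARS2, 21.5% for CARS2, 22.9% for AARS2, 24.1% for EARS2 and 26.7% for HARS2. YARS2 and RARS2 had 31.7% and 33.6%, and LARS2, NARS2 and WARS2 had 43.5%, 45.3% and 47.1%. IARS2 was detected in 98.9% of A549 cells and PARS2 in 5.75%, so the share of PARS2 is the less precise, with an interval of 73.5% to 80.9% against 8.39% to 8.86%.

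Compared pair by pair, the mitochondrial gene had the higher new share in 11 of 13 pairs in A549. The widest gap was that of MARS and MARS2, at 11.0% and 77.7%. WARS and WARS2 had 9.64% and 47.1%, NARS and NARS2 9.40% and 45.3%, and LARS and LARS2 11.4% and 43.5%. The exceptions were IARS with 13.7% against 8.63% for IARS2, and SARS with 14.1% (13.5 to 14.7) against 11.0% for SARS2 (10.4 to 11.6). CARS and CARS2 were closest in the usual direction, at 18.1% and 21.5%, with 12521 and 12700 counts behind them. In the other 12 pairs the cytosolic gene had more counts than its partner. For the neighbours HARS and HARS2, HARS had 10.1% at 0 h, then 9.89%, 11.4%, 11.9%, 10.7% and 10.7%, and HARS2 had 25.0%, 24.1%, 26.5%, 30.8%, 26.4% and 26.4%. Every HARS2 culture was above every HARS culture.

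In A549 longer genes had higher new shares (Spearman rho 0.334 across 13920 protein-coding genes), so the span from first to last base in GENCODE release 29 was set beside each share. Cytosolic and mitochondrial members had median spans of 38.3 kb and 32.1 kb, near the 37.7 kb of protein-coding genes. Under 20 kb, 4 cytosolic members had a median share of 8.00% and 6 mitochondrial members 24.8%, against 16.8% for 4466 protein-coding genes. From 20 to 50 kb these were 10.8% over 10 cytosolic, 24.1% over 3 mitochondrial and 23.5% over 3682 protein-coding genes. From 50 to 100 kb they were 14.9% over 6, 21.5% over 3 and 30.5% over 2507. Over 100 kb there were 4 mitochondrial members, FARS2, LARS2, NARS2 and WARS2, with a median of 46.2% against 37.8% for 3265 genes, and no cytosolic one. Cytosolic medians were below the protein-coding median in each of the 3 ranges that held any, and mitochondrial medians were above it in all ranges but 50 to 100 kb. The highest shares came from genes at opposite ends in span. MARS2 spans 3.02 kb with 1 exon and PARS2 7.62 kb with 2 exons, whereas FARS2 spans 568 kb with 7 exons. Across the 36 members rho of share with span was 0.212, across the 20 cytosolic members 0.553 and across the 16 mitochondrial members 0.115. These are descriptions across genes that share libraries and depth.

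**Figure D2:**
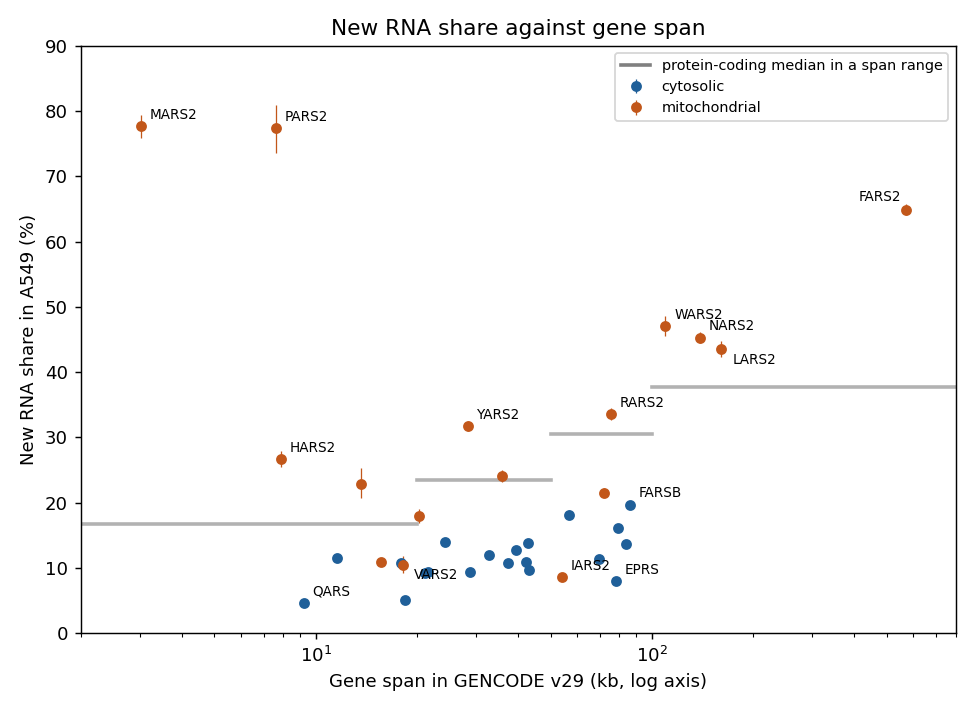
New share in A549 (percent) against gene span (kb, log axis) for the 36 members, with exact 95% intervals. Grey lines are protein-coding medians of 16.8%, 23.5%, 30.5% and 37.8% in 4 ranges of span. Cytosolic points stay under these lines, and MARS2 and PARS2, both under 20 kb, stand highest.

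In labelled HEK293T cells, after a 6 h label, the class medians stood in the same order. The cytosolic median was 43.6% over 20 members, from 16.3% for VARS to 56.7% for AARS. The mitochondrial median was 56.8% over the 13 members with at least 100 counts, from 29.9% for IARS2 to 84.8% for FARS2. Protein-coding genes had a median of 71.4% (9073 genes), with all 20 cytosolic members below it and 4 of the 13 mitochondrial members above. Pooled over members, 36.6% of cytosolic counts were new (36.03 to 37.2) and 61.0% of mitochondrial counts (60.0 to 62.1). The background measured the same way was 0.996% and 1.46% with iodoacetamide only, 0.785% and 1.19% with S4U only, and 0.757% and 0.946% with neither. HARS2, MARS2 and PARS2 had 64 to 96 counts and were left out of the median. Their shares were 70.8% (60.7 to 79.7), 75% (64.1 to 84.01) and 92.2% (82.7 to 97.4).

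QARS with 16.4% (13.9 to 19.2) and VARS with 16.3% (13.7 to 19.1) were lowest in this line too. EPRS had 21.3%, LARS 25.4% and KARS 28.9%. Among the highest cytosolic members, AARS had 56.7% (51.7 to 61.5), FARSB 56.1% (53.3 to 58.9) and FARSA 54.1% (50.2 to 58.02). The intervals of FARSA and FARSB overlapped in HEK293T, unlike in A549. They rest on 652 and 1203 counts in HEK293T and on 15919 and 35327 in A549. The overlap therefore does not show a difference between the lines. AARS, alanyl-tRNA synthetase, stood at 10.7% in A549, below the class median there. The 8 complex enzymes had a median of 31.05%, below the 43.6% of their class. Of the 11 pairs with enough counts, 7 had the higher share in the mitochondrial gene. Among these 7, the intervals of SARS, at 45.3% (42.3 to 48.3), and SARS2, at 48.6% (41.6 to 55.6), overlapped. In the other 4, AARS and AARS2 had 56.7% and 55.2%, CARS and CARS2 49.1% and 47.3%, and TARS and TARS2 50.4% and 47.6%. IARS and IARS2 had 33.2% (31.6 to 34.8) and 29.9% (27.7 to 32.2). The intervals overlapped within each of these 4 pairs. The widest gaps were those of WARS2 over WARS, 75.5% against 31.6%, and YARS2 over YARS, 82.6% against 41.1%.

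Shares in the lines ran in parallel across the 33 members with enough counts in both, with a Spearman rho of 0.768, and across 9004 protein-coding genes rho was 0.840. Among the 13 mitochondrial members it was 0.912 and among the 20 cytosolic members 0.463. Over all genes in labelled HEK293T, 80.1% of 2151025 intronic and 42.4% of 4625653 exonic counts were new. A549 had 33548097 intronic and 184492665 exonic counts, a smaller intronic part. The lines differ in label time, culture, depth and this mix, so the rho values describe an order only.

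**Figure D3:**
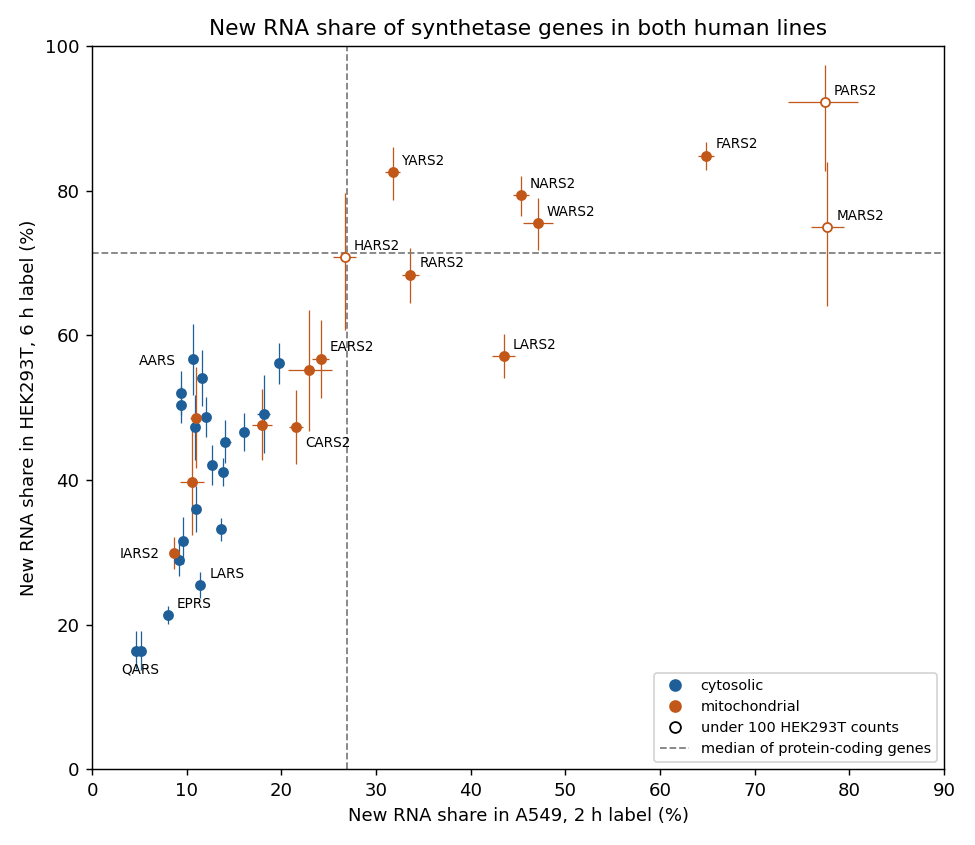
New share in labelled HEK293T after 6 h (vertical, percent) against that in A549 after 2 h (horizontal, percent), with exact 95% intervals and dashed lines at the protein-coding medians of 71.4% and 26.9%. Open circles have under 100 HEK293T counts. Cytosolic genes fill the lower left, and QARS and VARS are lowest in both lines.

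The dexamethasone course asked which genes respond to the steroid. Known steroid targets rose in new RNA, with adjusted p-values of 1.5e-05 for FKBP5, 1.6e-05 for PER1 and 2.4e-05 for TSC22D3. New RNA of PER1, a clock gene, stood at 9.65 CPM of new RNA at 0 h and at 93.4 to 116 in the treated cultures, that of FKBP5, a receptor cochaperone gene, at 63.0 and at 776 to 1060, and that of TSC22D3, a leucine zipper gene induced by the steroid, at 8.00 and at 179 to 272. Against these, no synthetase gene passed the test of the 5 treated cultures against 0 h (edgeR quasi-likelihood test, Benjamini-Hochberg adjusted over all genes, threshold 0.05). In whole RNA 0 of 36 members were called, against a background of 0.878% of all 22894 genes tested, and 0 had an unadjusted p under 0.05. In new RNA 0 of 36 were called, against 6.00% of 17507 genes, with 3 higher and 2 lower at an unadjusted p under 0.05. The comparison of new with pre-existing RNA (whole minus new counts) called 0 of 36 members and 0.00% of all genes, with 2 members higher and 1 lower at an unadjusted p under 0.05. FKBP5, PER1 and TSC22D3 were thus not called by it either, so its lack of calls says little about the members. DESeq2 also called 0 members in each of these tests. On simulated data with 1 dispersion shared by all genes, the edgeR test found 93% of 2-fold and 30% of 1.5-fold changes in whole RNA. In new RNA it found 90% and 14%, and for new against pre-existing RNA 75% and 14%. Changes of 1.5-fold were thus mostly missed in the simulation. The SE of a member's log2 fold in whole RNA ran from 0.060 for EPRS to 0.24 for VARS2. The simulated rates therefore do not give the power for a given member. With a single culture at 0 h, the model takes its variation to equal that of the treated cultures.

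Class medians were small in either direction. In whole RNA the median log2 fold was −0.019 for cytosolic and 0.025 for mitochondrial members, against 0.0040 for all genes. In new RNA it was −0.069 and 0.063, against 0.010. Summed over the 20 cytosolic genes, the whole level was 3420 CPM at 0 h, then 3514, 3446, 3306, 3251 and 3280. For the 16 mitochondrial genes it was 743 at 0 h, then 757, 764, 752, 760 and 769. The cytosolic sum was below its 0 h value in the last 3 cultures, and the mitochondrial sum was above its 0 h value in all 5. CPM levels here are scaled to the culture's total after TMM normalization, which corrects for a few genes taking a large part of a library. Fewer cells making a transcript and less transcript per cell cannot be told apart in these sums.

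In new RNA the members with the largest changes did not pass. CARS2, mitochondrial cysteinyl-tRNA synthetase, stood at 45.2 CPM of new RNA at 0 h and at 63.9, 57.3, 62.2, 67.7 and 61.2 in the treated cultures, a log2 fold of 0.47 ± 0.12 (SE; adjusted p = 0.054). FARSB stood at 123 at 0 h and then at 163, 157, 151, 156 and 163, a log2 fold of 0.36 ± 0.10 (adjusted p = 0.062). All 5 treated cultures were above 0 h for both genes. The cytosolic partner CARS went the other way, with 60.0 at 0 h and then 49.2, 49.1, 48.2, 47.9 and 45.0, a log2 fold of −0.33 ± 0.10 (adjusted p = 0.117). TARS had 144 at 0 h and then 125, 114, 116, 122 and 116, a log2 fold of −0.28 ± 0.095 (adjusted p = 0.138), and here too all treated cultures were below 0 h. Without the 2 h culture, FARSB (adjusted p = 0.031), CARS2 (adjusted p = 0.032) and TARS (adjusted p = 0.0498) passed by edgeR, in a setting where 11.6% of all genes passed. VARS2 new RNA stood at 4.41 at 0 h and then at 6.55, 6.33, 4.38, 5.68 and 6.15, and PARS2 new RNA at 10.1, 8.64, 9.75, 7.20, 9.87 and 7.46.

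In whole RNA the largest log2 folds against 0 h were those of VARS2, at 0.53 ± 0.24 (adjusted p = 0.42), and PARS2, at −0.30 ± 0.17 (adjusted p = 0.52). PARS2 whole RNA stood at 2.82 CPM at 0 h and then at 2.35, 2.38, 2.20, 2.47 and 2.11. CARS2 had 52.7 at 0 h, then 57.7, 57.5, 58.9, 61.4 and 63.0, a log2 fold of 0.18 ± 0.078 (adjusted p = 0.40). Among cytosolic members TARS had −0.18 ± 0.14 (adjusted p = 0.64), FARSB 0.12 ± 0.063 (adjusted p = 0.47) and YARS, tyrosyl-tRNA synthetase, −0.099 ± 0.089 (adjusted p = 0.70). FARSB whole RNA stood at 152 at 0 h, then at 168, 167, 166, 160.5 and 165, and YARS at 136, 134, 136, 120, 120 and 125. HARS had 87.7 at 0 h and 86.9 to 92.3 in the treated cultures, and HARS2 23.7 and 22.4 to 26.1, with the 0 h value inside both ranges. For 5 members (FARSB, CARS2, TARS2, VARS2 and YARS2) all treated cultures were above 0 h in whole RNA and for 4 (FARSA, YARS, PARS2 and WARS2) all were below, against 22.7% and 22.4% of all genes. In new RNA these were 7 and 9 members, against 24.9% and 24.1%.

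**Figure D4:**
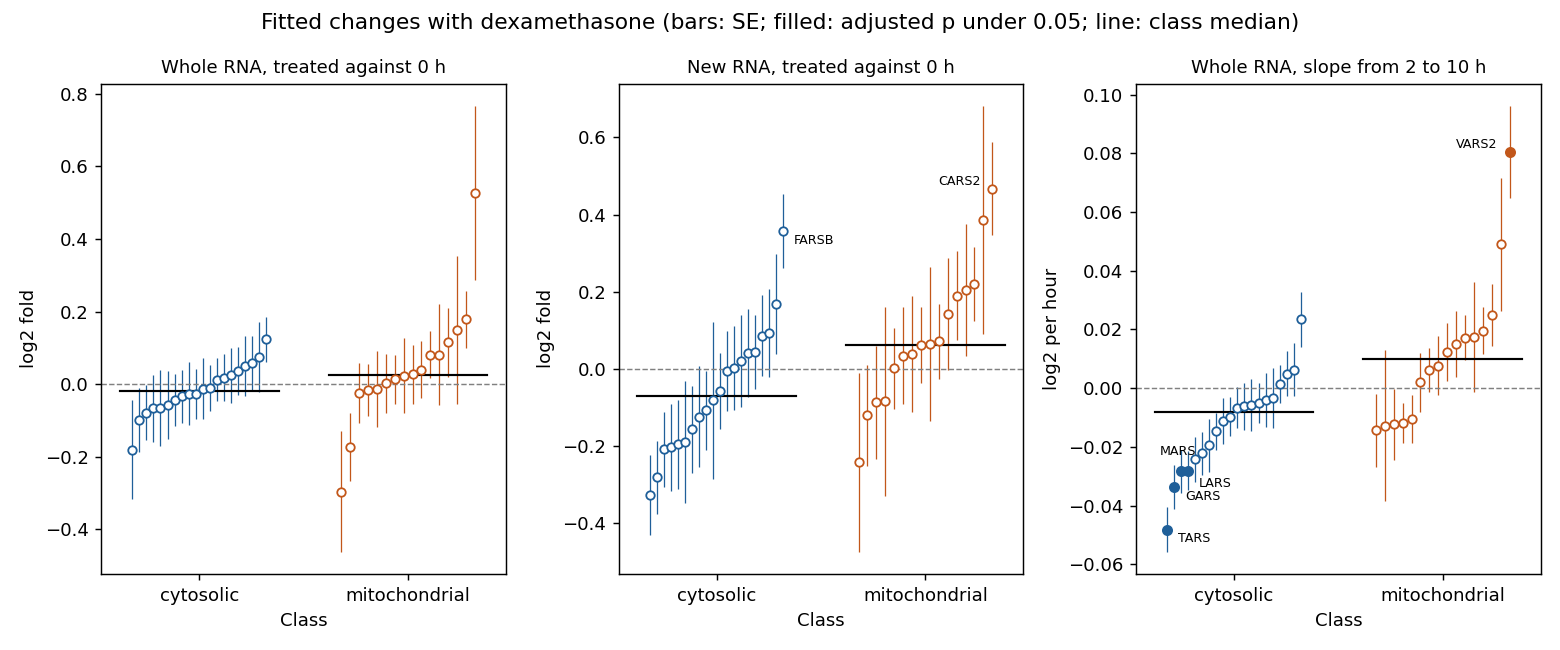
Fitted log2 fold of the treated cultures against 0 h in whole RNA (left) and in new RNA (middle), and slope per hour in whole RNA from 2 to 10 h (right), with 1 point per gene, bars for the SE, filled points for adjusted p under 0.05 and black lines for class medians. No point is filled in the first 2 panels, and 4 cytosolic slopes below 0 and 1 mitochondrial slope above 0 are filled in the third.

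Trends across the 5 treated cultures gave the calls among the members. In whole RNA 4 genes fell with time from 2 to 10 h, the cytosolic TARS, GARS, LARS and MARS, which attach threonine, glycine, leucine and methionine, and 1 rose, the mitochondrial VARS2. The background was 12.6% of 21493 genes with a called slope, 6.53% falling and 6.10% rising, and 19.1% (9.92% and 9.18%) among the 13177 genes with at least 500 counts, which all 36 members are. Called members were 11.1% falling and 2.78% rising, beside 9.92% and 9.18% of genes at like counts. In new RNA 0 of 36 slopes were called against 7.70% of 16366 genes, with 2 above 0 and 0 below 0 at an unadjusted p under 0.05, and DESeq2 called 0 as well.

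TARS whole RNA stood at 308 CPM at 0 h and at 318, 286, 260, 250 and 244 at 2, 4, 6, 8 and 10 h. Its slope was −0.048 ± 0.0076 log2 units per hour (adjusted p = 0.0035), and each later culture was lower than the one before. GARS stood at 165 at 0 h, then at 178, 161, 153, 151 and 146, with a slope of −0.034 ± 0.0075 (adjusted p = 0.018). LARS stood at 258 at 0 h, then at 264, 256, 250, 231 and 229, with a slope of −0.028 ± 0.0066 (adjusted p = 0.024). MARS stood at 115 at 0 h, then at 118, 117, 108, 105 and 103, with a slope of −0.028 ± 0.0073 (adjusted p = 0.033). In all 4 genes the 2 h culture was above 0 h, and the 8 and 10 h cultures were below it. VARS2 stood at 8.05 at 0 h, then at 8.60, 10.9, 11.5, 13.1 and 13.8, and rose by 0.080 ± 0.016 log2 units per hour (adjusted p = 0.0098), with every treated culture above 0 h. VARS2 shares its strand with GTF2H4 where they overlap, so its counts are uncertain. These calls rest on few cultures. Without the 2 h culture TARS alone was called (7.44% of all genes), without 4 h TARS, VARS2 and GARS (9.30%), without 8 h TARS and VARS2 (6.57%), and without 10 h TARS, VARS2 and MARS2 (8.48%), while without 6 h all 5 genes were called (12.2%).

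New RNA of these genes did not follow with a called slope. In the simulation, a trend of 0.05 log2 units per hour was found in 13% of cases with new RNA and in 34% with whole RNA. For a trend of 0.1 the rates were 75% and 94%. The steepest fall in whole RNA, that of TARS, was −0.048. The lack of a called slope therefore does not show that new RNA of these genes stayed level. For TARS new RNA the slope was −0.0065 ± 0.012 log2 units per hour (adjusted p = 0.82), and its treated cultures ran from 114 to 125. GARS new RNA stood at 107 at 0 h, then at 101, 83.5, 95.9, 90.5 and 92.1. LARS new RNA stood at 130 at 0 h, then at 144, 126, 143, 125 and 131, and MARS at 61.1, then at 58.1, 58.0, 57.4, 53.5 and 56.8. All treated cultures were below 0 h for TARS, GARS and MARS, and LARS lay on both sides of it. The difference in slope between new and whole RNA was not tested.

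**Figure D5:**
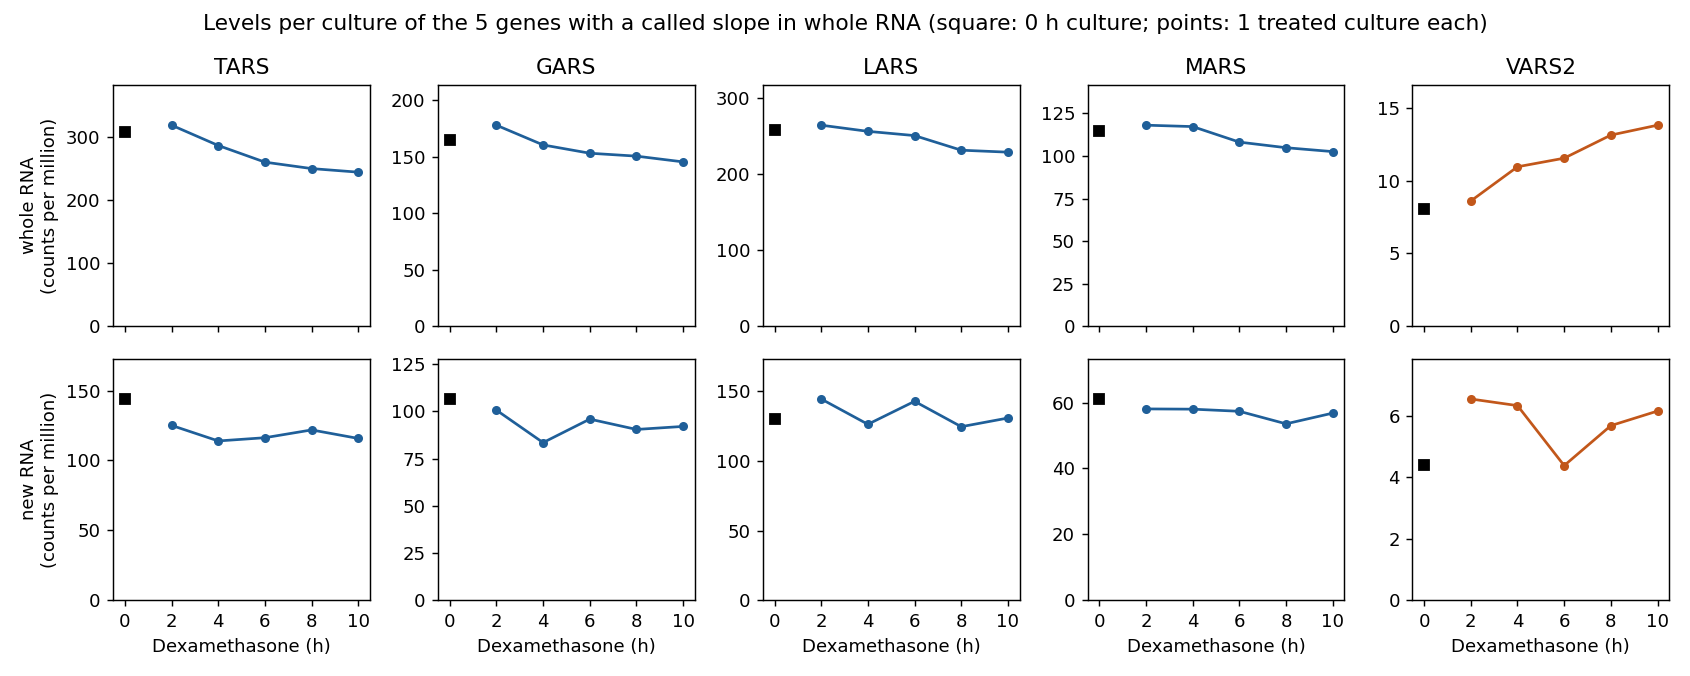
Level of the 5 genes with a called slope in each culture, in CPM of whole RNA (top) and of new RNA (bottom), against hours of dexamethasone. The square is the 0 h culture and each point is 1 treated culture. TARS whole RNA goes from 318 at 2 h to 244 at 10 h and VARS2 from 8.60 to 13.8.

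Over the class, 16 of 20 cytosolic slopes in whole RNA were below 0, with a median of −0.0081 log2 units per hour, and 11 of 16 mitochondrial slopes were above 0, with a median of 0.0100. The median over all genes was 0.00016. The cytosolic members listed as known ATF4 targets numbered 13, of which 4 fell and 0 rose, with a median slope of −0.019, beside 6.53% of all genes that fell (9.92% at like counts). None of the 7 other cytosolic members was called (edgeR; 1 above 0 and 0 below 0 at an unadjusted p under 0.05), and their median slope was −0.0050. The difference between these lists was not tested, and the lists were chosen with earlier results of these data known. Of the 8 complex enzymes 2 fell, LARS and MARS.

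Beside the synthetases, a list of 28 genes of the integrated stress response, ATF4 itself and further ATF4 targets, moved in both directions. Against 0 h, where 0.878% of all genes were called in whole RNA and 6.00% in new RNA, CEBPB, a transcription factor gene, rose in whole RNA by 1.26 ± 0.094 log2 units (adjusted p = 0.0014) and DDIT4, an inhibitor of mTORC1 signalling, by 1.35 ± 0.22 (adjusted p = 0.037). SLC7A11, the cystine transporter gene, had −0.99 ± 0.50 (adjusted p = 0.47), and VLDLR had −0.54 ± 0.20 (adjusted p = 0.33). In new RNA CEBPB rose by 1.37 and DDIT4 by 1.38, SLC7A11 fell by 1.39 (adjusted p = 0.048), and PHGDH, of serine synthesis, had −1.11 ± 0.30 (adjusted p = 0.062). The list's median log2 fold was −0.16 in whole and in new RNA, with 21 of 28 genes below 0 in each. CEBPB and DDIT4, the only genes of the list called higher against 0 h, were already higher at 2 h. New RNA of CEBPB stood at 151 CPM at 0 h and 423 at 2 h, and that of DDIT4 at 220 and 439. Whether these rises come through ATF4 or through the steroid in another way was not tested. In slopes of whole RNA, 9 of 28 fell and 3 rose, with a median of −0.029 log2 units per hour. Of all genes 6.53% fell and 6.10% rose (9.92% and 9.18% of those with at least 500 counts). Those that fell were the serine and folate genes PSAT1, PSPH, SHMT2 and MTHFD2 and the amino acid transporter genes SLC7A11, SLC1A4, SLC1A5, SLC3A2 and SLC7A1. SLC7A11 had the steepest slope, at −0.18 ± 0.032 (adjusted p = 0.0068), and SLC1A4 had −0.074 ± 0.012 (adjusted p = 0.0045). PPP1R15A, ALDH1L2 and DDIT4 rose, by 0.086, 0.082 and 0.062. The other listed genes, ATF4, ASNS and TRIB3 among them, had no called slope. ATF4 whole RNA stood at 142 CPM at 0 h and at 117 to 142 in the treated cultures. ASNS stood at 34.1 and at 29.9 to 35.4, and TRIB3 at 30.4 and at 34.1 to 40.4. PSAT1 whole RNA stood at 78.6 CPM at 0 h, then at 78.2, 72.0, 65.6, 63.0 and 59.0, so it was lower in each later culture. In new RNA 1 slope of 28 was called, that of SESN2, which fell by 0.096 (adjusted p = 0.037), against 7.70% of all genes. The 13 ATF4 targets among the synthetases and these 28 do not overlap as lists, but every slope comes from the same 5 cultures.

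The 18 tRNA charging partners, which include scaffold proteins of the complex, tRNA export and processing factors and peptidyl-tRNA hydrolases, had 0 calls in every test by edgeR, with 1 slope in whole RNA above 0 and 2 below 0 at an unadjusted p under 0.05. The tRNA exporter gene XPOT had a slope of −0.028 ± 0.0089 in whole RNA (adjusted p = 0.075) and a log2 fold of −0.30 ± 0.097 in new RNA (adjusted p = 0.12). EEF1E1, which encodes a small protein of the complex, had a slope of −0.028 ± 0.0082 (adjusted p = 0.052), SEPSECS, of selenocysteine tRNA, had 0.044 ± 0.023 (adjusted p = 0.27) and QRSL1, a subunit of the mitochondrial enzyme that makes glutaminyl-tRNA, 0.030 ± 0.0088 (adjusted p = 0.054). Against 0 h in whole RNA, PET112, another subunit of that enzyme, had 0.27 ± 0.13, AARSD1, an alanyl-tRNA editing gene, 0.27 ± 0.13, PSTK −0.23 ± 0.13 and EEF1E1 −0.17 ± 0.096. The partners' median new share in A549 was 24.05%, above that of the cytosolic synthetases.

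Of 16 cytosolic translation factors 3 fell in slope of whole RNA, namely EIF2S2 at −0.032 ± 0.0067 log2 units per hour (adjusted p = 0.014), EIF2S3 at −0.025 (adjusted p = 0.037) and EEF1D at −0.024 (adjusted p = 0.039), the first pair being subunits of the initiation factor that brings methionyl-tRNA to the ribosome. Of all genes 6.53% fell (9.92% at like counts). EEF1G had −0.028 ± 0.0081 (adjusted p = 0.053). None of the 16 was called against 0 h (edgeR; 1 below 0 in each kind of RNA at an unadjusted p under 0.05, the cap-binding factor gene EIF4E). In whole RNA EIF4E had a log2 fold of −0.18 ± 0.076 (adjusted p = 0.38), EIF2S2 −0.12, EIF4A1 −0.093 and GSPT1 −0.047. Their median new share was 11.1%, next to the 11.2% of the cytosolic synthetases. Of 9 mitochondrial translation factors 1 was called, in slopes of new RNA, where GFM1, a mitochondrial elongation factor gene, rose by 0.050 ± 0.012 (adjusted p = 0.026), from 90.9 CPM of new RNA at 2 h to 117 at 10 h, against 7.70% of all genes called. MTIF2 had 0.035 ± 0.012 (adjusted p = 0.12) and MTRF1L, a release factor gene, a log2 fold of 0.39 ± 0.16 against 0 h in new RNA (adjusted p = 0.25). In whole RNA against 0 h MRRF had 0.13, MTIF2 0.10, MTIF3 0.080 and MTRF1 −0.073, none of them called. Their median new share was 19.3%, between those of the synthetase classes.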

How the data were processed

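The submitters' processing notes name STAR 2.5.2b, Trim Galore 0.4.1, Picard 1.105 and SAMtools 1.3, with the hg19 and mm10 builds. The authors deposited raw counts per gene and cell for all RNA (whole) and for RNA called newly made (new). The sources used here do not say how new molecules were called or duplicates collapsed. The deposited fraction per mixture cell that the authors head as a mutation read rate was not used. New share is new over whole counts, summed over cells, with exact Clopper-Pearson 95% intervals, and medians take genes with at least 100 whole counts.

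Counts were summed per culture and fitted over all genes with edgeR 4.0.16 in R 4.3.3 (quasi-likelihood test, TMM, filterByExpr with a minimum count of 10), with 4 residual degrees of freedom against 0 h and 3 for slopes. P-values were Benjamini-Hochberg adjusted over all genes, with 0.05 as threshold. All 36 members passed the filter in every test. Alternatives were DESeq2 1.42.0, RLE scaling, no filter and each treated culture left out in turn. The lone 0 h culture was kept in every fit against 0 h. Another alternative left out the 5% of cells with the highest deposited doublet score. Doublets were otherwise not removed here. The fits were tested on simulated data. Shares were described without a test. Values are given for members past a threshold, for those with the largest changes or the highest and lowest shares in each class, and for HARS and HARS2. In each partner list, called genes and the 4 largest changes in whole RNA against 0 h are named, with a few others of large change. The members and lists were chosen with earlier results of these data known.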

Additional observations from a re-analysis of the deposited data

Results flagged for a closer look

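New RNA of MARS was lowest at 8 h, at 53.5 CPM, apart from the other 4 treated cultures at 56.8 to 58.1. It was 1 of 72 groups of 5 treated cultures examined (36 genes in 2 kinds of RNA), and chance alone sets off about 1 group in 20.

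NIH/3T3 cells of the mixture, which the comparisons above do not use, also gave new counts for the mouse synthetase genes. After the 6 h label, cytosolic genes had a pooled new share of 31.3% (exact 95% interval 30.3 to 32.3, 8783 counts) and mitochondrial genes 38.2% (35.6 to 41.0, 1302 counts). Over all genes, NIH/3T3 cells with iodoacetamide only had 1.08% new counts. The 20 cytosolic genes had a median of 34.5%, from 15.1% for Vars to 49.1% for Farsa, against 50.4% over 5026 mouse protein-coding genes. Lars2 had 15.7% (12.1 to 20.0), Yars2 46.0% and Fars2 53.1% (45.5 to 60.6), and the other 13 mitochondrial genes had fewer than 100 counts each.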

How the results depend on the processing

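No paired analysis was possible because the labels give no replicate numbers and each time is 1 culture. Members called were 0 in every setting for whole RNA against 0 h, slopes of new RNA and new against pre-existing RNA. For new RNA against 0 h, 3 were called without the 2 h culture, where 11.6% of all genes were called against 6.00% with all cultures, and 0 under the other settings. For slopes of whole RNA, 5 were called, and leaving out 1 culture gave 1 to 5. Of 1620 values of single genes under alternatives, 12 lost and 4 gained a call, 76 without a call changed sign, and no called value reversed. The A549 class medians moved by less than the spread between cultures, to 10.95% to 11.5% and 27.5% to 29.6%. In HEK293T the cytosolic median was 41.1% over genes with at least 500 counts, 44.4% as a mean over cells, 46.6% without KARS, GARS and QARS, and 43.01% with the iodoacetamide-only share taken off. The mitochondrial median was 62.8% over genes with at least 20 counts, 71.9% over the 6 with at least 500 and 55.2% with that background taken off. The mitochondrial median thus rests on which genes have enough counts.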
